A study of Mus musculus with 16 samples.

Results

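The genes described here are those that the authors' test listed as different between Smarcad1 knockout (KO) and wild type (WT) colon in the absence of colitis. There were 46 such genes among the 5171 genes listed in at least 1 of the 4 deposited comparisons, which is 0.890% of them. Genes that passed no comparison were not analysed here. RNA-seq was performed on whole colon tissue of C57BL/6 mice. WT animals were compared with animals in which floxed Smarcad1 was deleted by Vil-cre, a Cre recombinase under the villin promoter that is active in the intestinal epithelium and not in stroma, muscle, nerve or blood cells. The conditional allele came from a single ES cell clone. Every mouse, controls included, was given an enriched microbiota by bedding transfer, beginning 2 weeks ahead of the colitis treatment. The control groups (3 WT and 3 KO libraries) received no further treatment. The colitis groups (5 WT and 5 KO libraries) drank water with 1% DSS (dextran sodium sulphate, which injures the epithelium and so causes colitis) for 15 days. The sample labels give colon as the tissue, whereas the design text of the series names small intestine. Defining colonocyte genes stood at high levels in the WT control group, with a mean of 11.74 log2 RPM (reads per 1000000 mapped reads) for Car1, 11.07 for Slc26a3 and 10.76 for Aqp8.

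Smarcad1 is a chromatin remodelling ATPase of the SNF2 family, known for work on heterochromatin and on DNA ends. Remodellers of this family use ATP to shift or exchange nucleosomes, so their loss can raise as well as lower the transcription of single genes. The colon epithelium is renewed from crypt stem cells and holds absorptive colonocytes, goblet cells, tuft cells and enteroendocrine cells, and it rests on connective tissue, immune cells, muscle and the enteric nervous system. In such whole tissue, fewer cells of one type and less RNA per cell cannot be told apart.

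Each value below is a mean over the libraries of a group, computed by the authors on the log2 scale. The tables hold no values of single libraries, so no SD can be given and no test was run. Differences are KO minus WT means, so 1 unit is a doubling. Because the authors' test on these same control libraries chose the genes, their control differences are a description. The lowest means of each group lie on steps that whole reads produce, which gave mean library sizes of 10.1 M reads (M, 1000000) in the WT and 9.77 M in the KO control group, and of 8.005 M in the WT and 9.87 M in the KO colitis group. The same steps turn each mean into a mean number of reads per library, and a standard error (SE) from counting those reads is given where it matters. It covers counting error only and is smaller than the spread between mice. The floor for a fold was set at a mean of 3 reads in each library.

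Of the 46 genes, 27 were higher and 19 were lower in KO than in WT control colon. The median size of the difference was 0.66 log2 units, against 0.13 over all 5171 listed genes. The smallest was 0.40 (Cd38) and the largest 6.20 (Khdc1a). The higher genes held most of the large differences. A difference of 1 or more was seen in 15 genes, 11 higher and 4 lower. A further 23 genes differed by 0.5 to 1, and 8 by less than 0.5. Each difference was at least 6.78 times its counting SE. Size alone did not set the list, since 510 of the other 5125 genes had a control difference at least as large as that of Cd38. Of these 5125 genes, 79 differed by 1 or more, and 18 of them had a mean of at least 10 reads per library in both control groups.

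**Figure D1:**
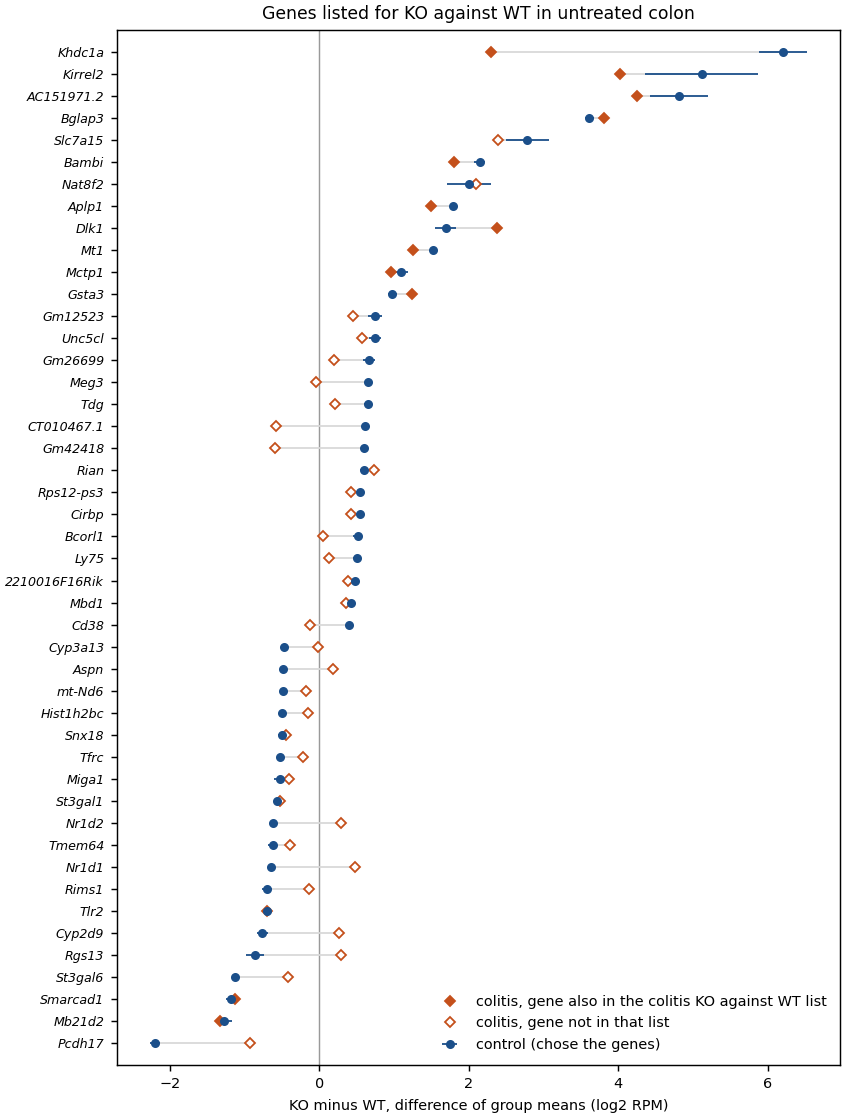
Difference of the KO and WT group means in log2 RPM (x axis) for each of the 46 genes (y axis). Circles show control colon with a bar of 1 counting SE, diamonds show colitis, and filled diamonds mark the 12 genes that the authors also listed for KO against WT in colitis. The differences of 1 or more are mostly above 0, and the colitis diamonds of Nr1d1, Nr1d2, Gm42418 and CT010467.1 lie on the other side of 0 from their circles.

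**Figure D2:**
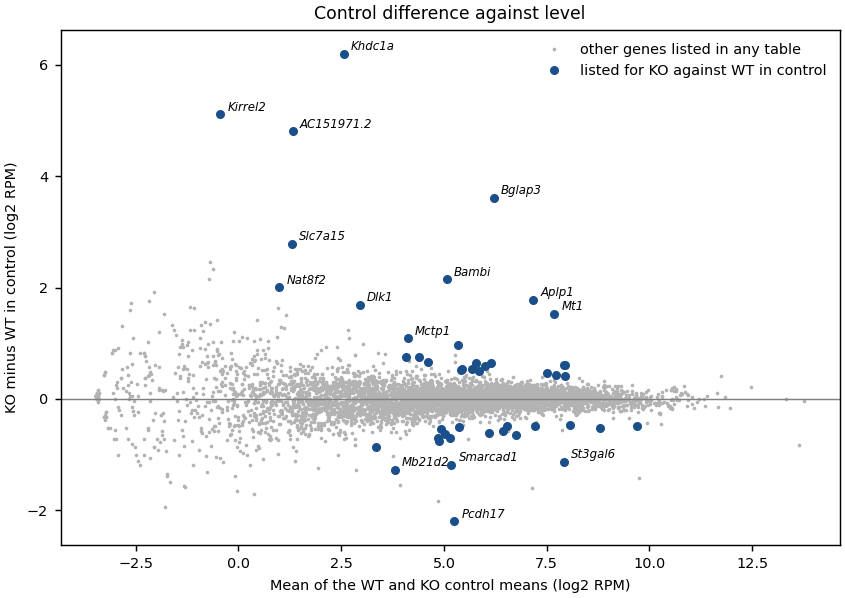
Difference between KO and WT control means (y axis, log2 RPM) against the mean of both control means (x axis, log2 RPM) for the 5171 listed genes. The 46 genes are blue and named where the difference is 1 or more. Khdc1a, Kirrel2 and AC151971.2 stand above all other genes, and Pcdh17 lies lowest.

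Smarcad1 itself (chr6:65042583-65116061, build GRCm38) had a mean of 5.77 log2 RPM in the WT and 4.59 in the KO control group, a difference of -1.18 (counting SE 0.06). The KO mean was 44.1% of the WT mean. In colitis the means were 5.68 in WT and 4.55 in KO, a difference of -1.13. Its level thus stood apart between the genotypes in the same direction in both states and its change between control and colitis was -0.09 for WT and -0.04 for KO. The value counts reads over all exons of the gene in all cells of the tissue, including cells without Vil-cre and exons outside the floxed part.

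The largest increases were in genes that were close to silent in WT colon. Khdc1a, a KH domain gene known from oocytes and early embryos, stood at -0.54 log2 RPM in WT and 5.66 in KO control colon, or a mean of 6.95 and 494 reads per library. Its difference was 6.20 (counting SE 0.32), a 73.6-fold higher mean. Kirrel2, an adhesion protein of the immunoglobulin superfamily known from kidney podocytes and pancreatic islets, had -3.01 in WT and 2.11 in KO control. The WT mean can only come from libraries with 1, 1 and 2 reads, against a mean of 42.1 reads in KO, so the KO level was at least 14.5-fold higher. AC151971.2, a transcript at chr9:44670453-44672238 without a match in the GENCODE M21 annotation, had -1.09 in WT and 3.72 in KO control, a difference of 4.81 (counting SE 0.39) from 4.76 to 129 reads. None of these 3 genes reached a mean of 10 reads in WT control, and all 3 were also listed for KO against WT in colitis.

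Bglap3, a relative of the bone hormone osteocalcin, was low in WT and abundant in KO. It had 4.40 log2 RPM in WT and 8.01 in KO control, a difference of 3.61 (counting SE 0.06) or a 12.2-fold higher mean, from 214 to 2519 reads per library. Corrected for exon length, its KO control mean was 6.62 log2 RPKM (RPM per kilobase of exon), against 4.67 for Khdc1a and 0.13 for Kirrel2. Near-identical relatives of Bglap3 lie beside it, and reads that map to more than 1 of them were not counted. Slc7a15, an amino acid transporter, had -0.10 in WT and 2.68 in KO control, a difference of 2.78 from 9.44 to 62.7 reads. Nat8f2, a member of an N-acetyltransferase family known from liver and kidney, had -0.02 and 1.99, a difference of 2.00 from 10.0 to 38.7 reads. The same genotype order held in colitis for all of these genes, as the plot of the group means by gene shows.

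**Figure D3:**
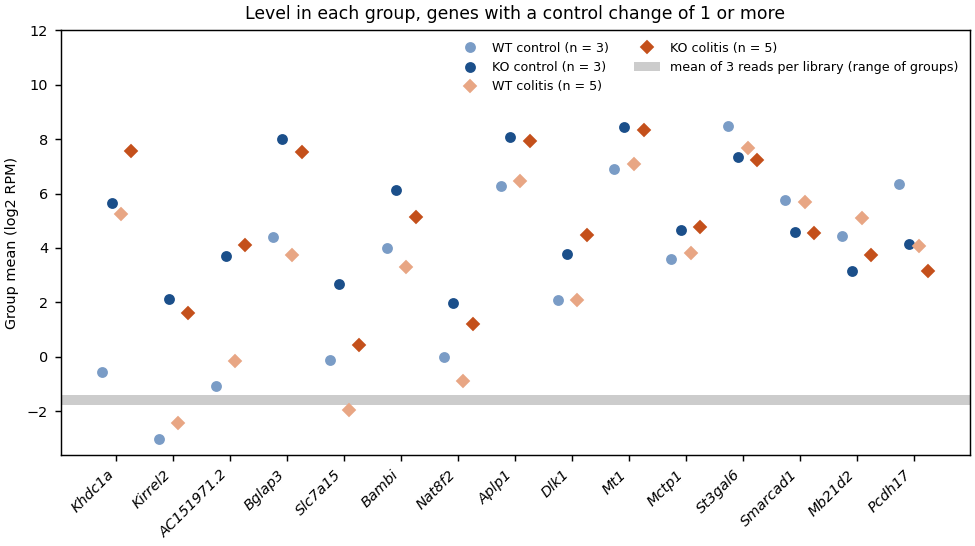
Group mean in log2 RPM (y axis) of the 15 genes with a control difference of 1 or more (x axis), in the control and colitis groups of both genotypes, with the level of 3 reads per library as a grey band. Kirrel2 lies below the band in both WT groups and above it in both KO groups, and the WT and KO colitis means of Khdc1a (5.25 and 7.55) are both close to or above its KO control mean (5.66).

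The stretches before the starts of Bglap3 and Slc7a15 are shown because these genes went from a low to a clear level. Each is 250 bases of the RefSeq sequence for build GRCm38.p6, on the strand of the gene and ending at the start that RefSeq gives, with CG pairs in capitals. The Bglap3 stretch is chr3:88372742-88372991 and the Slc7a15 stretch is chr12:8599067-8599316, both on the minus strand.
Bglap3: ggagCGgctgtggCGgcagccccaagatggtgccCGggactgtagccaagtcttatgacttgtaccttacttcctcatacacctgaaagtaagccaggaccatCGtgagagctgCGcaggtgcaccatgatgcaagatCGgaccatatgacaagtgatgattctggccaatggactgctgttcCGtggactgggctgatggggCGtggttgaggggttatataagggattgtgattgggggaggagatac
Slc7a15: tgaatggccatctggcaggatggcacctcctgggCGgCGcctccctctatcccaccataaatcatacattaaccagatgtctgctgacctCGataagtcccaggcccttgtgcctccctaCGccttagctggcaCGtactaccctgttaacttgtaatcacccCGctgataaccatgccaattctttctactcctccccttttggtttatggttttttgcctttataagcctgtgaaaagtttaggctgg
The Bglap3 stretch holds 8 CG pairs and the Slc7a15 stretch 6, against a median of 6 over 27025 mouse promoters. Among the 46 genes, 32 had a RefSeq promoter, with 0 to 40 CG pairs and a median of 9. The median was 8 for the 18 matched genes that were higher in KO and 12 for the 14 that were lower.

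Several of the increased genes are neighbours. Of the 46 genes, 9 lay within 100 kb of another, at 4 loci, and at each locus the genes differed in the same direction. Kirrel2 and Aplp1 lie 1998 bp apart on chromosome 7. Gsta3 and Khdc1a lie 83979 bp apart on chromosome 1. Dlk1, Meg3 and Rian span 209 kb on chromosome 12. Gm42418 and CT010467.1 overlap on chromosome 17, so reads of one may also be counted for the other.

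Of the genes near the 46, most differed little. Larger differences had a greater share than among the other genes of the tables, but in part at very low reads, and this was not tested. In all, 50 other listed genes lay within 100 kb of 25 of the 46, with a median difference of 0.13 in size, against 0.12 over all the 5125 other genes. A difference of 0.5 or more was found in 7 of the 50 (14.0%), against 6.83% of the 5125, and of 1 or more in 2 (4.00%), against 1.54%. Those 2 were Treh and Khdc1c, both under the floor of 3 reads in WT control. Among the others of the 7, Nat8f3 had means of 2.00 reads in WT and 2.93 in KO control. Gm26906, also among the 7, overlaps Meg3 on the other strand, so its reads may be shared. The rest of the 7 had more reads. Kif27, near 2210016F16Rik, differed by 0.93, from 38.8 to 71.3 reads. Azgp1, near Cyp3a13, differed by 0.81, from 89.7 to 152 reads, and Cyp2d12, near Cyp2d9, by 0.50. Cyp3a13 and Cyp2d9 themselves were lower in KO. Treh, the gene for trehalase, which splits the sugar trehalose, starts 994 bp from AC151971.2 on the other strand. It had a mean of 2.66 reads in WT control and 14.1 reads in KO control, so that KO was at least 4.87-fold higher, and it was listed for KO against WT in colitis and not in control. Khdc1c, a paralogue beside Khdc1a, had no reads in WT control and a mean under the floor in KO control, so no fold is given. Tyrobp and Nfkbid, beside Aplp1, differed by 0.18 and -0.18.

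Among genes of signalling at the cell surface, Bambi, a pseudoreceptor that dampens TGF-beta and BMP signals, had a mean of 4.00 log2 RPM in the WT and 6.14 in the KO control group. The difference was 2.15 (counting SE 0.07), a 4.42-fold higher mean. From a list of 26 TGF-beta and BMP genes, 12 were in any table. Bambi was the only one of these among the 46, and the median over the 12 was 0.01. Smad7 and Smad6, the intracellular inhibitors of these pathways, differed by 0.01 and 0.07. The ligand subunit Inhbb had the largest difference of the remaining 11, -0.59. Aplp1, a relative of the amyloid precursor protein that is known mainly from neurons, had 6.28 in WT and 8.07 in KO control, a difference of 1.78 (counting SE 0.03). Mctp1, a membrane protein with calcium-binding C2 domains, had 3.58 and 4.67, a difference of 1.09.

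The imprinted Dlk1-Dio3 region on chromosome 12 produces Dlk1, a transmembrane protein related to Notch ligands, from the paternal copy and the long non-coding RNAs Meg3 and Rian from the maternal copy. Dlk1 stood at 2.10 log2 RPM in WT and 3.79 in KO control colon, a difference of 1.69 (counting SE 0.15). Meg3 had 5.82 and 6.48, a difference of 0.65, and Rian 5.70 and 6.29, a difference of 0.60. Genes known for expression from the paternal and from the maternal copy were thus higher in KO, and the alleles themselves were not told apart. From the list of 6 genes of the region, Dio3 was the only other one in any table, with both control means under the floor. None of the 6 listed genes of other imprinted loci was among the 46, and 4 of them were lower in KO. Peg3 and Plagl1 differed by -0.19 and -0.28.

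Genes of metal handling and detoxification differed in both directions. Mt1, a metallothionein that binds zinc and copper, had 6.92 log2 RPM in WT and 8.44 in KO control, a difference of 1.53 (counting SE 0.03) or 2.88-fold. Its neighbour Mt2, which lies 5513 bp away and codes for a closely related protein that responds to the same metals, had 5.16 and 5.04, a difference of -0.12 (counting SE 0.06). The pair thus differed between the genotypes by unequal amounts. The same was seen in colitis, where the difference was 1.26 for Mt1 and -0.64 for Mt2. Tfrc, the transferrin receptor for iron uptake, had 9.07 in WT and 8.54 in KO control, a difference of -0.53. The iron exporter Slc40a1 differed by -0.04 and the iron reductase Cybrd1 by 0.36.

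The 250 bases before both metallothionein genes are shown because these neighbours behaved differently. Capitals mark matches on either strand to TGCNCNC, a looser form of the core of the metal response element at which Mtf1 binds. It accepts letters that the core itself does not, so a match need not be such an element. The Mt1 stretch is chr8:94178839-94179088 and the Mt2 stretch is chr8:94172368-94172617, both on the plus strand.
Mt1: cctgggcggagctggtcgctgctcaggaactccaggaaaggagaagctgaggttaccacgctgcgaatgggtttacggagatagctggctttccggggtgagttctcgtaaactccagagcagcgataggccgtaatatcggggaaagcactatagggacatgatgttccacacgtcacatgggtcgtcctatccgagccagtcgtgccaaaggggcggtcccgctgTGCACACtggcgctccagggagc
Mt2: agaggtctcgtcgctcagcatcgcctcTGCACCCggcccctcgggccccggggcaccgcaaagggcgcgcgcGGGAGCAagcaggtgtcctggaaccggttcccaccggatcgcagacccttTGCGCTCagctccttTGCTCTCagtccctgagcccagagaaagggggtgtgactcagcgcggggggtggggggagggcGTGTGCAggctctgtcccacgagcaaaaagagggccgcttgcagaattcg
The Mt1 stretch held 1 match and the Mt2 stretch 5. These counts cover only the 250 bases before the start that RefSeq gives for each gene. Matches past that start, or before any other start, were not counted. The counts thus do not show how many such elements either gene has, and their part in the unequal differences was not tested. At least 1 match was present in 43.8% of the 27025 promoters and 5 or more in 0.311%.

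Of 29 xenobiotic metabolism genes, 16 were in any table. Among the 46, Gsta3 and Nat8f2 were higher and Cyp2d9 and Cyp3a13 lower, and the median over the 16 was 0.11. Gsta3, a glutathione transferase, had 4.85 log2 RPM in WT and 5.82 in KO control, a difference of 0.98. Its relatives Gsta4 and Gstm1 differed by -0.03 and -0.02. Cyp2d9, a steroid-hydroxylating cytochrome P450 known from male liver, had 5.26 and 4.50, a difference of -0.76. The neighbouring paralogues Cyp2d22 and Cyp2d12 differed by 0.14 and 0.50. Cyp3a13, a drug-metabolising P450 of the intestine, had 8.30 and 7.83, a difference of -0.47. Genes of the Cyp2d family are similar in sequence, so their split of reads is uncertain.

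Among the 46, 3 genes that read, repair or silence DNA were higher in KO and a histone gene was lower. Tdg, a glycosylase that removes thymine and oxidised methylcytosine from DNA, had a mean of 5.46 log2 RPM in the WT and 6.11 in the KO control group, a difference of 0.65. Bcorl1, a corepressor of the Polycomb complex PRC1.1, had 5.17 and 5.68, a difference of 0.51. Mbd1, which binds methylated DNA, had 7.52 and 7.94, a difference of 0.43. From a list of 17 readers and repair factors, 8 were in any table, and 7 of them, all but Smarcad1, had higher means in KO. The median over the 8 was 0.27. The 4 that were not among the 46 had a median of 0.18. All 4 were in the tables only through the list of colitis against control in KO. Dnmt3a fell there by 0.53 and Tet2 by 0.45. Entry through a fall in KO favours a high KO control mean, so the count of higher genes is a description only. Dnmt3a differed by 0.31 and Tet2 by 0.24. Over all 5171 listed genes, 49.0% were lower in KO. Hist1h2bc, a histone H2B gene, had 7.47 and 6.98, a difference of -0.49.

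Most of the listed clock genes differed in opposite directions by phase. Nr1d1 and Nr1d2 code for the Rev-erb repressors, which close a feedback loop of the circadian clock on Arntl. Nr1d1 had 7.08 log2 RPM in WT and 6.43 in KO control, a difference of -0.65. Nr1d2 had 6.40 and 5.78, a difference of -0.61. Of 10 listed genes with a similar daily phase, 8 were lower in KO control, with a median of -0.54. Without Nr1d1 and Nr1d2, 6 of 8 were lower, and the median was -0.35. Per3 and Usp2 were higher, by 0.14 and 0.17. Dbp, a clock output factor, differed by -1.03. The 4 genes of the opposite phase were all higher, with a median of 0.25, and Arntl differed by 0.35. In colitis the order was the other way round, with 9 of the 10 genes higher and 3 of the 4 lower in KO. The difference of the medians between both sets was -0.79 in control and 0.76 in colitis. Per2, Per3, Hlf, Bhlhe41 and Usp2 were in the tables only through the list of colitis against control in KO, where they rose. Entry by that route favours a low KO control mean or a high KO colitis mean. Nfil3, of the opposite phase, was in the tables only through the list of colitis against control in WT, where it rose. Such entry favours a low WT control mean. These counts and medians are therefore a description of the listed genes. The hour of tissue collection is not given in the sources used here, and its part in these differences was not tested. The 250 bases before Nr1d1 and Nr1d2 held no CACGTG, the E-box letters bound by clock factors, which 6.05% of the promoters held.

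Of 12 sialyltransferase genes, 5 were in any table and the 2 that were among the 46 were lower in KO. Both code for enzymes that add sialic acid to galactose on glycan chains. St3gal6 stood at 8.48 log2 RPM in WT and 7.35 in KO control colon, a difference of -1.13 (counting SE 0.03), so that KO held 45.7% of the WT mean. St3gal1 had 6.73 and 6.16, a difference of -0.57. St3gal4 differed by -0.22, and St6galnac2 and St6galnac4 each by 0.13. St3gal6 was the more abundant of the 2 per exon length in WT control, with 5.85 log2 RPKM against 3.95.

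Among genes of defence and immune cells, Tlr2, a receptor for bacterial lipoproteins, was lower in KO. Its control means were 5.20 log2 RPM for WT and 4.50 for KO, a difference of -0.70 (counting SE 0.07). It was the only one of 12 listed Toll-like receptor and adaptor genes among the 46, and the median over the 12 was 0.03. Its partners Tlr1 and Tlr6 differed by 0.15 and 0.25, the co-receptor Cd14 by 0.35 and the adaptor Myd88 by 0.00. Unc5cl, an epithelial activator of NF-kappaB signalling, had 4.01 and 4.76, a difference of 0.75. Ly75, the endocytic receptor DEC-205 of dendritic cells, also made by epithelia, had 5.59 and 6.10, a difference of 0.50. Cd38, an ectoenzyme that breaks down NAD and is found on plasma cells and other leukocytes, had 7.74 and 8.15, a difference of 0.40.

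Rgs13, which ends G protein signals in germinal centre B cells, tuft cells and mast cells, had 3.78 log2 RPM in WT and 2.93 in KO control, a difference of -0.85 (counting SE 0.12). All 8 listed tuft cell genes had lower means in KO control, with a median of -0.25 and -0.19 without Rgs13. Pou2f3 and Il25 were in the tables only through the list of colitis against control in WT, where they fell. Entry by that route favours a high WT control mean, so the count of lower genes is a description only. Avil differed by -0.01 (counting SE 0.09) and Il25 by -0.57 (counting SE 0.61). The defining tuft genes Dclk1, Trpm5 and Pou2f3 differed by -0.34, -0.30 and -0.19. Their summed level with Rgs13 and the other 4 genes was 157 RPM in WT control and 130 RPM in KO control. Of the germinal centre list, Gcsam differed by -0.70 at a low level and S1pr2 by 0.49. The part of tuft cell number in the difference of Rgs13 was not tested.

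Pcdh17, a cell adhesion molecule of the protocadherin family known from brain, showed the largest decrease. Its control means were 6.34 log2 RPM for WT and 4.15 for KO, a difference of -2.20 (counting SE 0.07), so that KO held 21.8% of the WT mean. Mb21d2, a Mab-21 domain gene, had 4.44 and 3.17, a difference of -1.27. Rims1, a scaffold of the presynaptic release site, had 5.49 and 4.79, a difference of -0.70. The 8 listed genes of enteric neurons, glia and interstitial cells of Cajal had a median of -0.21, and 7 of them were lower, among them Snap25 at -0.30 and Uchl1 at -0.24. None of these 8 was among the 46. The part of nerve tissue in the differences of Pcdh17 and Rims1 was not tested. Aspn, the matrix proteoglycan asporin of fibroblasts, had 6.76 and 6.28, a difference of -0.48. The fibroblast genes Col1a1 and Dcn differed by 0.05 and -0.18, and Ogn, which lies 40480 bp from Aspn, by -0.27.

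The remaining decreased genes work inside most cell types. Snx18, a sorting nexin of endocytosis, had 5.61 log2 RPM in WT and 5.11 in KO control, a difference of -0.50. Miga1, a promoter of mitochondrial fusion, had 5.20 and 4.67, a difference of -0.53. Tmem64, a membrane protein, had 5.35 and 4.72, a difference of -0.63. The mitochondrial gene mt-Nd6, a subunit of respiratory complex I encoded on the opposite strand to mt-Nd5, had 9.94 and 9.46, a difference of -0.48. It had the highest mean of the 46 in either control group.

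The remaining increased genes are RNA-binding, non-coding or of unclear function. Cirbp, a cold-inducible RNA-binding protein, had a mean of 5.42 log2 RPM in the WT and 5.96 in the KO control group, a difference of 0.54. The related cold-inducible gene Rbm3 differed by 0.15. Rps12-ps3, named as a pseudogene of a ribosomal protein, had 5.18 and 5.72, a difference of 0.54. 2210016F16Rik had 7.28 and 7.75, a difference of 0.47. Gm12523, antisense to the sorting receptor gene Sort1, had 3.70 and 4.45, a difference of 0.75, and Sort1 differed by 0.12. Gm26699, a non-coding RNA on the strand opposite to Luc7l2, had 4.27 and 4.93, a difference of 0.66. Whether counting used the strand is not given in the sources used here, so reads of such genes and of their partners cannot be told apart. The same limit applies to the stretches that Nr1d1 shares with Thra, St3gal6 with Dcbld2, Tdg with Glt8d2 and Aspn with Cenpp. It also applies to Rps12-ps3 with Pdzd8 and mt-Nd6 with mt-Nd5, each partner being on the other strand.

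Gm42418 and CT010467.1 cover the same stretch of chromosome 17, where the annotation places a ribosomal RNA. Gm42418 had 7.64 log2 RPM in WT control, 8.24 in KO control, 8.84 in WT colitis and 8.26 in KO colitis. KO was thus higher by 0.60 in control and lower by 0.59 in colitis, and CT010467.1 behaved alike with 0.61 and -0.59. Ribosomal RNA contamination was found by the study in some of its libraries, and annotated ribosomal RNA reads were then removed. The labels do not say which libraries these were, and the part of that contamination in both rows was not tested.

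Of 16 marker lists, 15 had a gene in any table, and the 76 genes in them included 4 of the 46 (Rgs13, Cd38, Ly75 and Aspn). In the 9 lists with 4 or more genes in the tables, the median control difference lay between -0.25 (tuft) and 0.04 (dendritic cells and macrophages). Colonocytes had a median of -0.01, T cells -0.02 and neutrophils 0.00. The endothelial list had no gene in any table. From a list of 9 goblet cell genes, 3 were in any table, and these were all lower in KO. They were lower by 0.82 (Clca1), 1.59 (Ang4) and 1.83 (Retnlb) on the log2 scale, although none was listed for KO against WT in control. Their summed level was 17149 RPM in WT control and 9648 RPM in KO control, most of it Clca1. Clca1 and Retnlb entered through the WT list of colitis against control alone, and Ang4 through the KO list alone. The other goblet genes of the list, among them Muc2 and Tff3, passed no comparison and have no value here. The sum thus does not show the number of goblet cells. The part of goblet cells in the differences of the 46 genes was not tested.

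**Figure D4:**
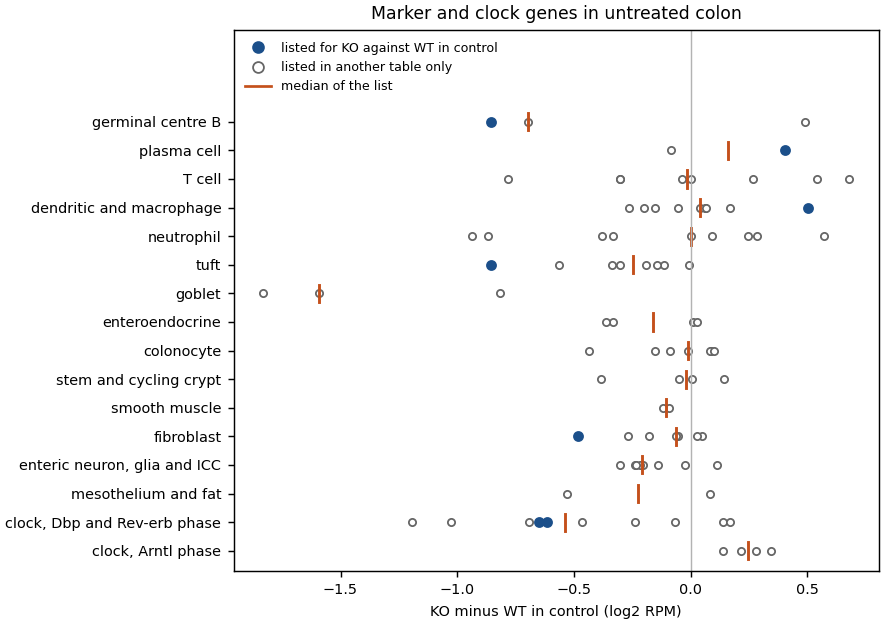
Control difference, KO minus WT in log2 RPM (x axis), of each marker or clock gene found in the tables, by list (y axis; lists with 2 or more genes). Filled points are among the 46 genes, open points are listed for other comparisons only, and bars are list medians. The goblet and tuft points all lie below 0, the Arntl phase points all above 0, and the colonocyte, T cell and neutrophil medians lie near 0.

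The colitis libraries were other mice, so they show the same genotype difference in samples that did not choose the genes. The sign of the difference was the same in colitis for 37 of the 46 genes (80.4%), against 53.3% of the other 5125 genes. This held for 23 of the 27 higher genes and 14 of the 19 lower genes. All 15 genes with a control difference of 1 or more kept their sign, as did 16 of 23 with 0.5 to 1 and 6 of 8 with less. The difference was smaller in colitis than in control for 39 of the 46 genes, and the genes were chosen for the size and steadiness of the control difference. The median in colitis was 0.57 for the higher genes, against 0.75 in control, and -0.21 for the lower genes, against -0.63 in control.

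The authors' list for KO against WT in colitis held 56 of the 5171 genes (1.08%), and 12 of the 46 were among them, 26.1% of one list and 21.4% of the other. A gene could enter these 5171 only through at least 1 list, so these shares have no value for genes outside the tables. The 12 shared genes were Smarcad1 and Mb21d2, which were lower, and Khdc1a, Kirrel2, AC151971.2, Bglap3, Bambi, Aplp1, Dlk1, Mt1, Mctp1 and Gsta3, which were higher. Bglap3 differed by 3.81 in colitis, Dlk1 by 2.38, Bambi by 1.81 and Aplp1 by 1.49. With colitis, the Kirrel2 level in KO was at least 8.09-fold above that in WT. The difference of Tlr2 was -0.70 in colitis, as in control, but Tlr2 was not in the colitis list. Nat8f2 and Slc7a15 were not in it either, with a difference of 2.10 and a level at least 3.65-fold higher in KO. The 9 genes with the opposite sign in colitis were Rgs13, Cyp2d9, Nr1d1, Nr1d2, Aspn, Cd38, Meg3, Gm42418 and CT010467.1. Of these, Meg3 differed by only -0.05 in colitis.

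Whether the 46 genes also moved with colitis was read from the 2 lists of colitis against control. These comparisons share the control libraries with the rule that chose the genes, so the same control means enter both. The list for WT held 18 of the 46 genes (39.1%), against 63.1% of all 5171, and the list for KO held 23 (50.0%), against 78.4%. A gene outside the KO against WT lists had to be in one of these lists to be among the 5171. Both lists held 13 of the 46 genes, 5 were in the WT list alone, 10 in the KO list alone and 18 in neither. The median size of the colitis change was 0.62 in WT and 0.46 in KO, against 0.64 and 0.59 over all 5171 genes.

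Among the 19 genes that were lower in KO control, 12 (63.2%) were listed for colitis in WT, against 63.1% of all 5171 genes. Of these 12, 8 fell and 4 rose. Pcdh17 fell by 2.28 in WT colitis and by 1.01 in KO colitis, so that the WT colitis mean of 4.07 log2 RPM was close to the KO control mean of 4.15. St3gal6 fell by 0.82 in WT and Rims1 by 0.90, and the KO changes of -0.12 and -0.34 were not listed. Rgs13 fell by 1.71 in WT, and its change of -0.57 in KO was not listed. St3gal1 (-0.78 in WT and -0.74 in KO), Miga1 (-0.60 and -0.47) and Cyp3a13 (-1.27 and -0.82) fell in both genotypes. Aspn was listed in WT, with -0.63, and had 0.03 in KO. The 4 that rose with colitis in both genotypes were Tlr2 (1.04 in WT and 1.04 in KO), Mb21d2 (0.64 and 0.58), Snx18 (0.34 and 0.40) and Nr1d2 (0.62 and 1.52). Tfrc and mt-Nd6 were listed for a rise in KO alone, with 1.14 and 0.43. Their WT means rose too, by 0.83 and 0.13, and these changes were not listed. The list for colitis did not hold Smarcad1, Nr1d1, Cyp2d9, Tmem64 or Hist1h2bc in either genotype. A difference in the colitis change between the genotypes was not tested for any gene.

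Among the 27 genes that were higher in KO control, 6 (22.2%) were listed for colitis in WT and 13 (48.1%) in KO. Over all 5171 genes these shares were 63.1% and 78.4%. Khdc1a rose by 5.79 in WT colitis and by 1.88 in KO colitis, to 5.25 and 7.55 log2 RPM, so that its genotype difference was 2.29 in colitis. Its WT colitis mean came near the KO control mean of 5.66. Cd38 rose by 1.81 and 1.28, Ly75 by 0.64 and 0.26 and Unc5cl by 0.61 and 0.44, while Mbd1 fell by 0.39 and 0.46. Tdg rose by 0.41 in WT, was listed there alone, and had -0.03 in KO. The 8 genes in the KO list alone were Gsta3, with a rise of 0.52, and Bglap3, Bambi, Slc7a15, Meg3, Gm12523, Gm26699 and Bcorl1, with falls. Slc7a15 fell by 2.23, Meg3 by 1.70 and Bambi by 1.02 in KO. The corresponding WT means also fell, that of Meg3 by 1.00 and that of Bambi by 0.68. Bglap3 changed by -0.47 in KO and by -0.67 in WT, where it was not listed. In WT colitis, Slc7a15 had a mean of 2.09 reads, so its control level was at least 2.49-fold higher. The other 13 genes, among them Kirrel2, AC151971.2, Aplp1, Dlk1, Mt1, Mctp1 and Rian, were in neither list. Mt1 changed by 0.17 in WT and -0.10 in KO, and Aplp1 by 0.18 and -0.12.

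**Figure D5:**
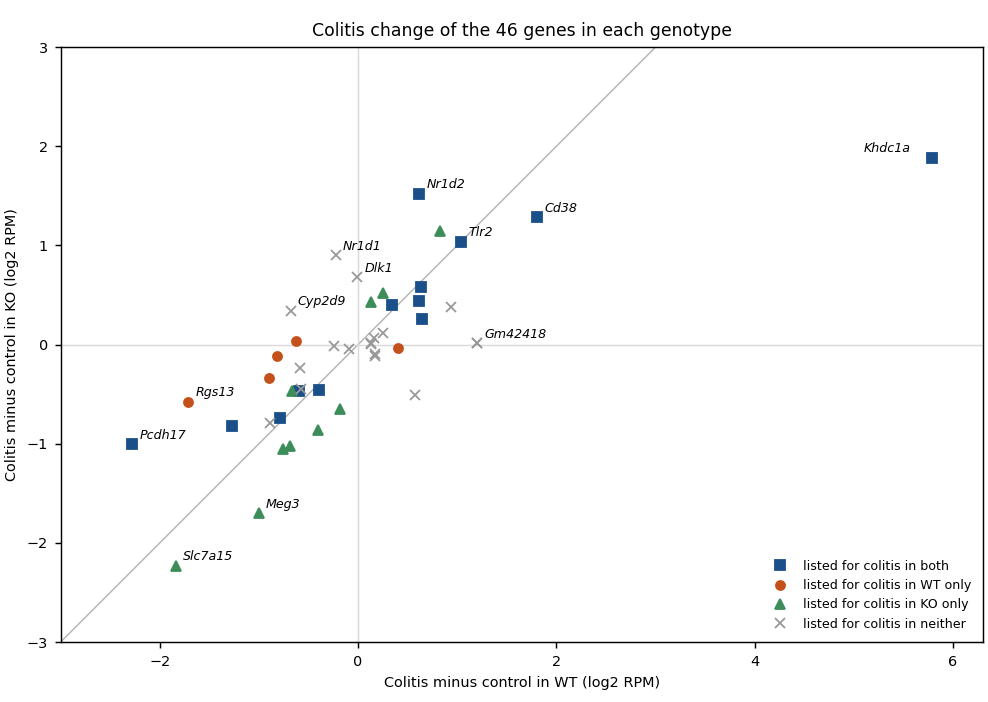
Change with colitis (colitis minus control group mean, log2 RPM) in KO (y axis) against WT (x axis) for the 46 genes, with the line of equal change. Symbols show whether the authors listed the gene for colitis in both genotypes, in 1 of them or in neither. Khdc1a lies far to the right, with 5.79 in WT and 1.88 in KO, and Pcdh17 lies at -2.28 in WT and -1.01 in KO and Rgs13 at -1.71 and -0.57.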

How the data were processed

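Total RNA of whole colon tissue was sequenced by BGI in 16 libraries, with 3 WT and 3 KO controls and 5 WT and 5 KO with colitis. The authors aligned reads to GRCm38 with HISAT2 2.1.0, kept those with a unique position, removed reads over annotated ribosomal RNA, counted reads per gene in SeqMonk and ran DESeq2 on the counts. The labels name single-end reads and the methods paired-end reads. The 4 deposited tables hold the genes under an adjusted p of 0.05 in each comparison, with group means of log2 RPM (reads per 1000000 mapped reads) computed by the authors, uncorrected for gene length. The authors' adjusted p-values are also in the tables and were not used here.

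Rows were identified by their gene symbol. Differences of means, counts and medians were computed in Python 3.11.15 with pandas 2.3.3. A count of 0 stands as 0.9 read in the deposited means, and library sizes were recovered from the lowest means. This recovery was tested on simulated data. Precision is limited by 3 libraries per control group and by means under 10 reads for 4 of the 46 genes in WT control. Because the tables give group means, no test was run. Annotation was GENCODE M21, in which 45 of the 46 symbols matched and 39 had identical coordinates. Coordinates are those of the tables. Lists were chosen from textbook knowledge, and the genes and the lists were chosen with earlier results of these data known. All 46 genes are named. A gene of the list of DNA readers and repair factors is not reported here. Other genes are named from the lists or as neighbours or paralogues. The alternatives were thresholds on the change, a minimum of 10 reads, pseudocounts of 0.1 and 1 RPM, centring, and leaving out ribosomal, mitochondrial and pseudogene rows.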

Additional observations from a re-analysis of the deposited data

How the results depend on the processing

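Across 7 results and 35 alternatives, 30 values stayed within 1.5 times the count or 0.2 log2 units, and 5 moved. All 5 came from keeping only genes with a control difference of 1 or more, which leaves fewer genes by construction. Under that limit, 15 genes remained in place of 46, their median absolute difference was 2.00 in place of 0.66, 15 had the same sign in colitis in place of 37, 4 were listed for colitis in WT in place of 18, and 6 in KO in place of 23. The genes with low reads, Khdc1a, Kirrel2, AC151971.2 and Slc7a15, were left out by the minimum of 10 reads per library, after which 42 genes remained and the median was 0.65. Without the ribosomal, mitochondrial and pseudogene rows, 42 genes remained, 24 higher and 18 lower, and 35 had the same sign in colitis. With a pseudocount of 1 RPM the median was 0.65, and centring left 27 genes higher and 19 lower. The clock difference between the medians was -0.60 without Nr1d1 and Nr1d2. With the floor in place of the mean of Kirrel2, the median absolute difference was 0.66. No paired analysis was possible because the tables hold group means, although the labels number the replicates in each group. For the same reason no replicate could be left out, and a single library that decides a value would not be seen.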

Other observations

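Genes with a large control difference that were not listed for KO against WT in control are given here as values, and they were chosen after their values were seen. Of the 18 such genes with a difference of 1 or more and at least 10 reads in both control groups, 8 were higher and 10 lower in KO. Gm4961 (1.63), 2610524H06Rik (1.24) and Nxf7 (1.09) were higher in KO control, and each was listed for KO against WT in colitis, with 2.38, 1.19 and 1.54. The largest decreases were those of Retnlb (-1.83), a goblet cell gene, Ang4 (-1.59), which codes for an antimicrobial ribonuclease, Zbtb16 (-1.55) and Sycn (-1.43). In colitis these differed by -0.83, 0.44, 0.07 and -0.03. Reg3b, an antimicrobial lectin, differed by 1.11 in control and by -1.51 in colitis.

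Cirbp and Rps12-ps3 had nearly the same pattern over the 4 groups. The difference between both rows varied by only 0.004 log2 units over the groups, and the next most similar gene to Cirbp among the 5171, 2210016F16Rik, varied by 0.093. The rows lie on chromosomes 10 and 19. Whether reads are shared between them was not tested.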
